A study of Nothobranchius furzeri with 10 samples.

Results

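The 200 gene models described here were those that stood highest in 2 of 10 muscle libraries of the turquoise killifish, Nothobranchius furzeri, an annual fish with a short life span, exercised replicate 3 and unexercised replicate 4. They were chosen by their measured levels among 26739 gene models. The score of a gene model was the log2 of the lower of these 2 levels plus 0.5 over the highest level in the other 8 libraries plus 0.5. Levels were read counts divided by median-of-ratios size factors and scaled to CPM, the count expected in a library of one common size. The 200 highest scores were kept among the 8483 gene models with at least 5 CPM in both libraries. The difference between the 2 libraries and the other 8 was the basis of the choice, so it is given as a description with no test.

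All 10 samples were muscle of 10-week-old males of line 4010, whose strain label gives the transgene Tg(mylz2:egfp,tfam). The 5 exercised samples came from fish perturbed in a swim tunnel, and the 5 unexercised samples from fish with no perturbation. Every sample carried the same transgene label, and no sample without it was compared. The label places egfp and tfam with mylz2, a gene of fast muscle. The labels do not say whether a sample came from 1 animal or several, so the spread behind each p-value is that of these samples and may be technical.

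Fish trunk muscle is built mostly of fast fibres, with a thin layer of slow fibres, and a small set of contractile and energy-metabolism transcripts dominates its RNA. Tissue pieces also hold connective tissue, vessels, nerve and blood, whose transcripts are counted together with those of the fibres. In such bulk samples, fewer cells of a type and less RNA per cell cannot be told apart. The tfam product binds mitochondrial DNA and is needed for its copying and transcription, and egfp encodes a green fluorescent protein. The identifiers of the gene models matched 0 entries of the reference gene table, and the count tables pair them with no name. Functions of the 200, markers of muscle and of other cell types, and the transgene were therefore not analysed here.

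Total counts ranged from 25927913 to 40433810 per library. Exercised replicate 3, with 25927913, and unexercised replicate 4, with 26869017, had the lowest totals and the highest size factors, 1.465 and 1.504. The next lowest total, 27354429 in unexercised replicate 3, came with a size factor of 0.7665. The factors of the other 8 ran from 0.756 (exercised replicate 1) to 1.135 (exercised replicate 5). The counts of the 2 libraries differed from each other with a chi-square of 45.4 per degree of freedom. Pairs among the other 8 gave 28.8 to 118.7, and 1 of the 2 against 1 of the 8 gave 465.6 to 751.2. The parts of depth and scaling in the results below were not tested beyond the alternatives given.

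The chosen gene models took 3.64% of all counts in exercised replicate 3 (95% Wilson interval 3.632% to 3.647%) and 3.99% in unexercised replicate 4 (3.982% to 3.997%). In the other exercised libraries they took 0.0702%, 0.0714%, 0.0895% and 0.0789% for replicates 1, 2, 4 and 5. In the other unexercised libraries they took 0.0766%, 0.0863%, 0.0667% and 0.0771% for replicates 1, 2, 3 and 5. Each of the 2 libraries stood alone in its group, as the rule fixes, and the ranges of the 4 other exercised and the 4 other unexercised libraries overlapped. The intervals cover counting error only. A mirrored rule, which took the 200 gene models lowest in the same 2 libraries, gave a set with 15.3% and 14.6% of their counts, against 31.5% to 34.5% in the other 8.

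**Figure D1:**
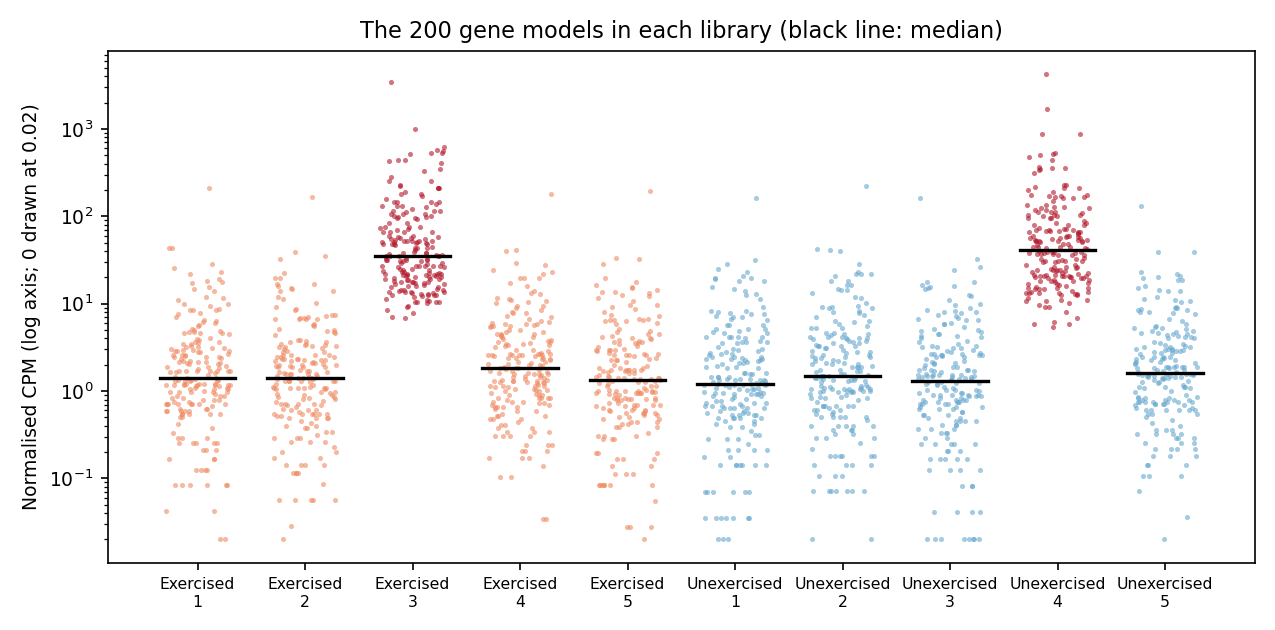
Normalised CPM (log axis) of the 200 gene models in each of the 10 libraries, 1 point per gene model, with a black line at the median; dark red marks the 2 libraries used to choose them. The medians were 35.4 and 41.2 CPM in those 2 libraries and 1.21 to 1.82 CPM in the other 8.

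The median level of the 200 was 35.4 CPM in exercised replicate 3 and 41.2 CPM in unexercised replicate 4. It was 1.42, 1.42, 1.82 and 1.33 CPM in exercised replicates 1, 2, 4 and 5, and 1.21, 1.47, 1.30 and 1.62 CPM in unexercised replicates 1, 2, 3 and 5. Over the 200 gene models, the mean of the 2 libraries was a median of 23.7 times the mean of the other 8, with quartiles of 18.2 and 38.6 and a range of 11.3 to 561.4. Over the 8483 eligible gene models the same ratio had a median of 1.02 and quartiles of 0.630 and 1.803. With library totals in place of size factors the median ratio of the 200 was 48.0. That scaling also raised the 17400 gene models with counts in every library by a median of 0.96 on the log2 scale, against -0.05 with size factors.

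There was no gap in the scores at the place where the list ended. Scores were above 5 for 10 gene models, above 4 for 46 and above 3 for 204 of the 8483, and 2890 (34.1%) were higher in both libraries than in all of the other 8. The gene model at rank 200 scored 3.018, with 10.8 CPM in the lower of the 2 libraries and 0.894 CPM in the highest of the other 8. At rank 201, just outside, the score was 3.017, with 27.2 CPM and 2.92 CPM. The mirrored rule gave scores of 1.68 to 3.91, with 5 gene models above 3, where the 200 ran from 3.02 to 6.53. It had 6895 eligible gene models, with at least 5 CPM in all of the other 8. Of these, 3038 were lower in both libraries than in all of the other 8.

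Nfu_g_1_010475 had the highest score, with 411 CPM in exercised replicate 3 and 482 CPM in unexercised replicate 4. It had 2.81, 0.832, 3.95 and 2.99 CPM in exercised replicates 1, 2, 4 and 5. In unexercised replicates 1, 2, 3 and 5 it had 0.211, 0.971, 0.538 and 1.87 CPM. No other library reached 4 CPM, and the lower of the 2 libraries was 104 times the highest of the 8. In read counts, these levels were 19019 and 22884 in the 2 libraries and between 6 and 115 in the others.

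Nfu_g_1_009390 came second, with 533 CPM in exercised replicate 3 and 361 CPM in unexercised replicate 4. Its other exercised libraries had 1.09, 1.41, 5.46 and 2.18 CPM, and its other unexercised libraries 1.30, 1.47, 1.41 and 1.69 CPM. Exercised replicate 4 was the highest of these 8, at 159 counts, and the other 7 had 26 to 78. By read count the first-ranked gene model was number 164 among all gene models in exercised replicate 3 and number 141 in unexercised replicate 4, and number 11478 by its mean level in the other 8.

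The third-ranked gene model had the largest ratio of means, 561.4. It had 7996 counts in exercised replicate 3 and 4969 in unexercised replicate 4. Exercised replicate 4 had 38 counts, and the other 7 libraries had 1 to 5. At rank 51 stood the most abundant of the 200, at 3479 and 4251 CPM in the 2 libraries, which made it number 15 and number 14 of all gene models there. Its level in the other 8 libraries was 132.8 to 222.7 CPM. It alone of the 200 was among the 1000 most abundant gene models in any of the other 8 libraries. In exercised replicate 3, 65 of the 200 were among the 1000 most abundant, and in unexercised replicate 4, 71 were.

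Most of the 200 were well above the lower limit in both libraries. At least 20 CPM in both was found for 140 of the 200 (70%), against 37.4% of the eligible gene models, and at least 100 CPM for 40 (20%), against 6.34%. These shares follow in part from the choice, since a high score is easier to reach from a high level. In the other 8 libraries the mean level was under 1 CPM for 69 gene models, 1 to 10 CPM for 115 and at least 10 CPM for 16. None was at 0 in all 8. A count was present in every one of the 8 libraries for 190 of the 200, compared with 99.8% of the eligible gene models.

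The ratio of one of the 2 libraries to the other was not part of the rule, although the rule, by using the lower level, favours similar levels. Each stands for 1 library, 1 from each group, so the values have no replicate check. The median log2 ratio of exercised replicate 3 over unexercised replicate 4 was -0.10 over the 200 gene models, with quartiles of -0.34 and 0.18. It was -0.03 over the 8483 eligible gene models, with quartiles of -0.22 and 0.16. The 2 libraries were within 1.5-fold of each other for 162 of the 200 (81%) and for 91.3% of the eligible gene models. They were more than 2-fold apart for 9 of the 200 (4.5%), 5 higher in exercised replicate 3 and 4 higher in unexercised replicate 4, against 1.83% of the eligible gene models.

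**Figure D2:**
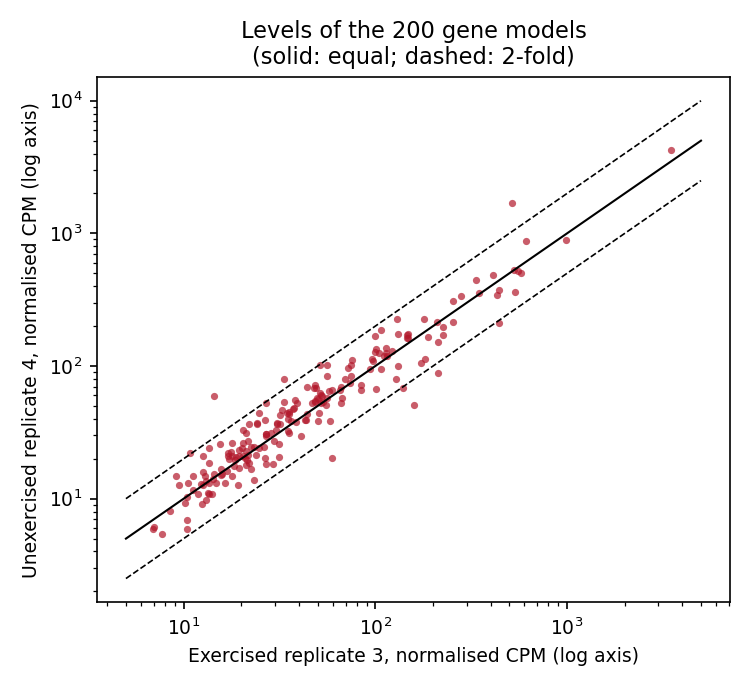
Normalised CPM of the 200 gene models in exercised replicate 3 (x axis) and unexercised replicate 4 (y axis), both log axes, 1 point per gene model, with a solid line at equal levels and dashed lines at 2-fold. Most points lie between the dashed lines, and 9 lie outside them.

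The same shares were taken by level, with few gene models in each. Among gene models with 5 to 20 CPM in the lower library, 2 of 60 chosen ones (3.33%) were more than 2-fold apart, against 2.13% of the eligible ones. At 20 to 100 CPM there were 5 of 100 (5%), against 1.29%, and at 100 CPM or more 2 of 40 (5%), against 1.49%. The widest difference was at rank 135, with 14.4 CPM in exercised replicate 3 and 59.9 CPM in unexercised replicate 4. In the other direction it was at rank 15, with 158.2 CPM in exercised replicate 3 and 51.1 CPM in unexercised replicate 4. At rank 80 the levels were 517.0 and 1704 CPM. Across the 200 gene models, log2 levels correlated at r = 0.957 between the 2 libraries. They correlated at 0.779 to 0.904 between either of these and another library, and at 0.933 to 0.976 among the other 8. Over the eligible gene models the same values were 0.972, 0.704 to 0.755 and 0.956 to 0.988. Gene models are not independent replicates, and each keeps its own length and annotation in every library.

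What remained of the 200 in the other 8 libraries was small and uneven. As a percentage of the mean of the 2 libraries, the median level of the 200 was 4.08%, 3.79%, 4.74% and 3.62% in exercised replicates 1, 2, 4 and 5. It was 3.52%, 4.30%, 3.41% and 4.61% in unexercised replicates 1, 2, 3 and 5. Exercised replicate 4 had the highest level of the 8 for 55 gene models and the lowest for 2. Exercised replicate 1 was highest for 36, unexercised replicate 5 for 35 and unexercised replicate 2 for 30, and each of the other 4 libraries for 9 to 13. Unexercised replicate 3 was lowest for 52. Both groups held libraries with many such gene models and libraries with few.

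Among the 10 highest scores, exercised replicate 4 was the highest of the 8 libraries for 7, namely ranks 1 to 7. Its level there was 0.884%, 1.22%, 0.941%, 1.03%, 1.29%, 1.16% and 1.802% of the mean of the 2 libraries in the order of rank. The highest of the other 7 libraries had between 0.104% and 1.44% for the same gene models. The gap was widest at rank 3, where exercised replicate 4 had 13.6 times the mean of the other 7. At ranks 8, 9 and 10 another library was higher. The median over the 10 was 1.19% in exercised replicate 4 and 0.122% to 0.648% in the other 7 libraries. Over ranks 11 to 50 the same medians were 3.05% in exercised replicate 4, the highest of the 8 for 11 of 40, and 1.91% to 2.69% in the others. Over ranks 51 to 200 they were 5.44% in exercised replicate 4 and 4.07% to 5.40% in the others. The highest of these 8 libraries enters the score, so rank and these percentages are tied by the rule.

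**Figure D3:**
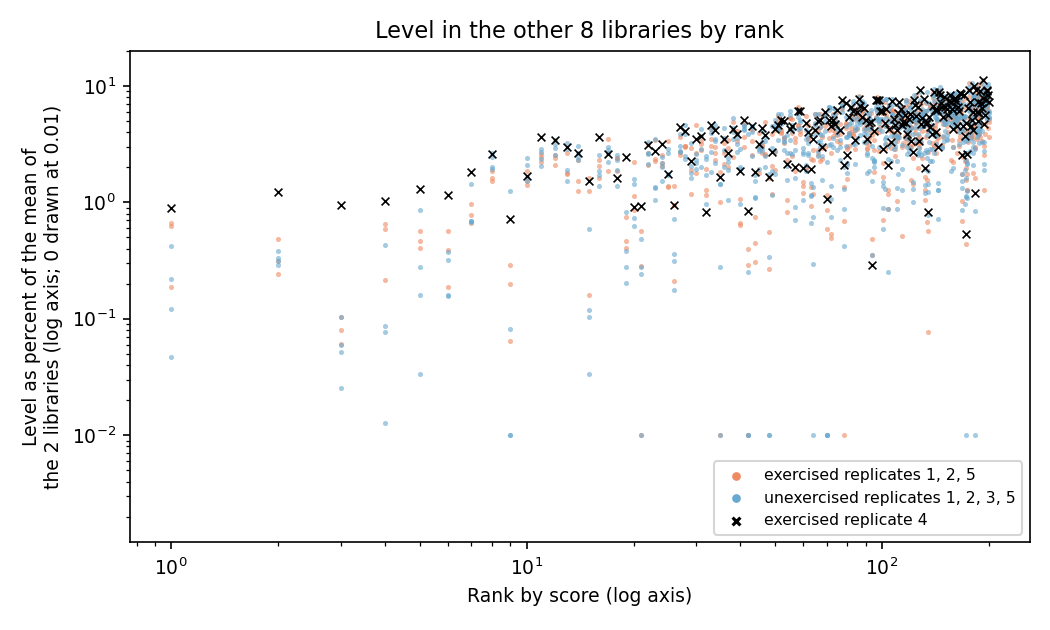
Level of each of the 200 gene models in the other 8 libraries as a percentage of its mean in the 2 libraries (log axis), against rank by score (log axis), 1 point per gene model and library. Black crosses mark exercised replicate 4, which is the top point at ranks 1 to 7 and lies among the other libraries at most lower ranks.

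The comparison by exercise asks which transcripts differ in muscle after swimming, and it was not the contrast that chose the 200. With all 10 libraries, 179 of the 200 passed the filter on low counts, and 0 of them were called at a Benjamini-Hochberg adjusted p of 0.05 by the quasi-likelihood test of edgeR. None had an unadjusted p under 0.05 either, where 0% of 15337 tested gene models were called and 9.53% had such a p. Each group held 1 library with very high levels of the 200, so a wide spread within both groups was fixed by the choice. Limma voom with quality weights also called 0 of the 179, with 3 (1.68%) at an unadjusted p under 0.05. That test called 11.9% of all tested gene models, with 25.9% at such a p. DESeq2 called 2.69% of all tested and gave no adjusted p to any of the 179.

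In the other 8 libraries, 4 per group, 175 of the 200 passed the filter and 1 was called, with a higher level in exercised muscle (0.571%). Of all 15200 tested gene models, 3.96% were called higher and 6.34% in either direction. An unadjusted p under 0.05 was found for 8 of the 175 (4.57%), against 21.6% of all tested. The levels of the 4 exercised and the 4 unexercised libraries were fully separate for 3 of the 175 (1.71%), against 13.2% of all tested. DESeq2 called 2 of the 175 (1.14%), against 10.3% of all tested, and limma voom with quality weights called 1 (0.571%), against 11%. The rule used the highest of these 8 libraries, so at a given mean level a difference among them lowered the score. The part of this in the shares above was not tested. With the mean of the 8 in place of the highest, 180 gene models were the same. The comparison by exercise in that set was tried after seeing the data. Of the 179 tested in that set, 1 was called, 12 (6.70%) had an unadjusted p under 0.05, and 1 had groups that did not overlap.

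The chosen gene models were also less abundant in these 8 libraries than most tested ones, with a median of 1.77 CPM against 5.83 CPM. Under 1 CPM, 1 of 44 was called, against 1.37% of all tested at that level, and 5 (11.4%) had an unadjusted p under 0.05, against 12.5%. At 1 to 10 CPM, 0 of 115 were called in edgeR, against 6.13%, and 3 (2.61%) had an unadjusted p under 0.05, against 21.7%. Levels were not fully matched in that range, with a median of 2.00 CPM over the chosen and 3.49 CPM over all tested. At 10 CPM or more, 0 of 16 were called in edgeR, against 8.56%, and 0 had an unadjusted p under 0.05, against 25%. At 1 to 10 CPM the standard deviation within groups, on the log2 scale, had a median of 0.28 over the chosen and 0.25 over all tested gene models. The size of the log2 fold change there had a median of 0.18 over the chosen and 0.24 over all tested. The median signed log2 fold change was 0.03 over the 175 and -0.01 over all tested.

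**Figure D4:**
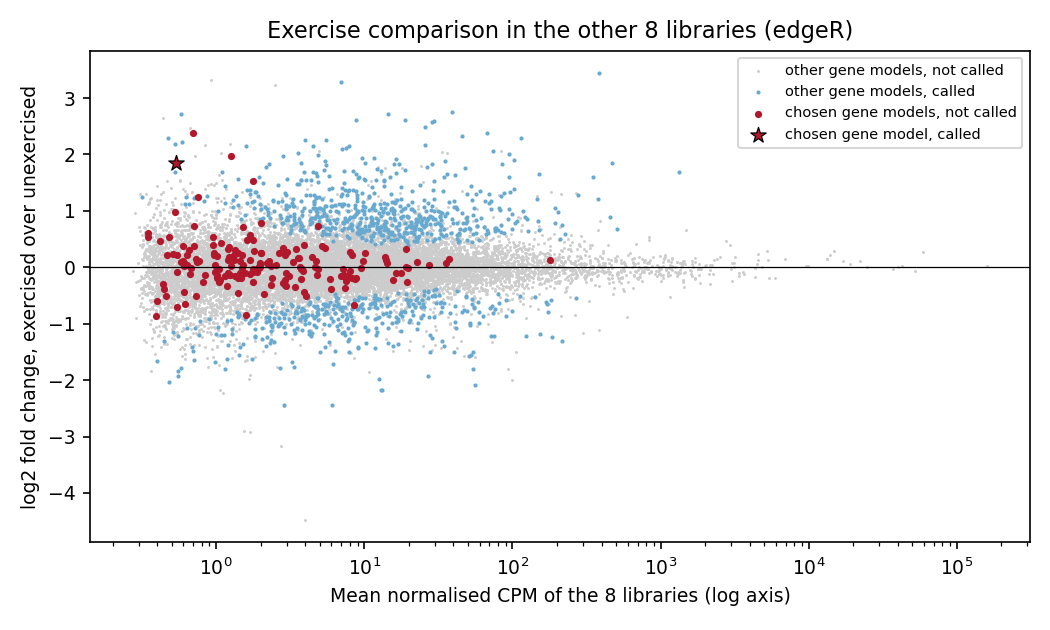
Log2 fold change of exercised over unexercised muscle in the other 8 libraries (edgeR) against mean normalised CPM (log axis), 1 point per tested gene model; red marks the 175 of the 200 that were tested, the star the 1 that was called, and blue other called gene models. Most red points lie below 10 CPM and near 0.

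The called gene model was Nfu_g_1_014064, at rank 144 by score and 17.1 and 22.0 CPM in the 2 libraries. It had 0.754, 1.32, 0.584 and 0.698 CPM in exercised replicates 1, 2, 4 and 5, and 0.141, 0.288, 0.248 and 0.252 CPM in unexercised replicates 1, 2, 3 and 5. Every exercised library lay above every unexercised one. The log2 fold change was 1.84 ± 0.367 (SE; edgeR adjusted p = 0.0163), from 17 to 46 counts in the exercised and 4 to 8 in the unexercised libraries. Without exercised replicate 2 the edgeR adjusted p was 0.0528. In the 2 libraries left out, the exercised one had the lower level, which is 1 library against 1. Of all 964 called gene models, 769 (79.8%) had the same direction in these 2 libraries as in the 8.

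In the other direction the lowest p belonged to Nfu_g_1_008278, at rank 105 and with 35.5 and 43.4 CPM in the 2 libraries. It had 2.05, 1.72, 1.68 and 1.65 CPM in exercised replicates 1, 2, 4 and 5, and 2.71, 1.94, 2.44 and 2.70 CPM in unexercised replicates 1, 2, 3 and 5. The groups overlapped, and the log2 fold change of -0.47 ± 0.181 (SE) did not pass (edgeR adjusted p = 0.161). Both gene models with the highest scores did not pass either. For Nfu_g_1_010475 the log2 fold change was 1.53 ± 0.618 (SE; edgeR adjusted p = 0.192), and for Nfu_g_1_009390 it was 0.78 ± 0.454 (SE; edgeR adjusted p = 0.363). For both, the exercised and unexercised libraries overlapped, and the highest was exercised replicate 4. Without that library the log2 fold change of Nfu_g_1_010475 was 1.29 (edgeR adjusted p = 0.389) and that of Nfu_g_1_009390 was 0.11 (edgeR adjusted p = 0.894). With each of the 8 libraries left out in turn, the log2 fold change of Nfu_g_1_009390 ran from 0.11 to 1.02. That of Nfu_g_1_010475 ran from 1.21 to 2.19, the highest without unexercised replicate 5 (edgeR adjusted p = 0.0885).

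Lengths of the gene models, which the rule did not use, were worked out from the deposited counts and RPKM. The 200 had a median length of 2446 bases, with quartiles of 1513 and 3884 and a range of 249 to 10944. The 8483 eligible gene models had a median of 3370 bases with quartiles of 1836 and 5573, and the mirrored set one of 2596 bases. Over all 22169 gene models with a length the median was also 2446 bases, with quartiles of 1190 and 4371. RPKM are levels per length and were recomputed from each library's own total, with no size factor. On that scale the median level of the 200 was 29.9 RPKM in exercised replicate 3 and 31.7 RPKM in unexercised replicate 4. It was 0.546 RPKM by the mean of the other 8 libraries. Over the eligible gene models these medians were 9.33, 9.45 and 4.05 RPKM. Scaling by library totals raised the 2 libraries over the other 8 by a median log2 of 0.96, as given above. The gaps between these RPKM medians include that shift.

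Of the 200, 8 (4%) carried an identifier number next to that of another of the 200, in 4 pairs. Among eligible gene models outside the 200, 1.71% stood next to one of them, and over all gene models 1.48% did. The pairs were ranks 49 and 116, 89 and 196, 148 and 191, and 172 and 173. Only directly adjacent numbers were counted. Some of the 200 had close but not adjacent numbers, such as ranks 79 and 122 near ranks 172 and 173, and such groups were not analysed here. In the pair of ranks 89 and 196, levels differed, at 225.1 and 129.6 CPM in exercised replicate 3. In unexercised replicate 4 they were 170.7 and 227.8 CPM. Identifier numbers were compared as numbers only, and positions in the genome were not analysed here.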

How the data were processed

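RNA of muscle was counted in 10 samples, grouped by the source and perturbation labels. Replicates were numbered within groups. The submitters' processing notes name STAR 2.4.1d, featureCounts 1.4.6-p4 and bcl2fastq 1.8.4, without saying what each did. Build, annotation and strand setting are not given in the sources used here. Reads of gene models that overlap, lie antisense or are nearly identical may therefore be mixed. Deposited read counts were used as they stand, at 25927913 to 40433810 per library. The RPKM values deposited by the authors gave the same length for a gene model in every library only if divided by library totals in the order of the rows (median variation 0.00837%, against 18.7% with each library's own total). Lengths were taken that way, and RPKM were recomputed from the counts.

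The gene models, the lists and the comparisons were chosen with earlier results of these data known. Identifiers were printed for the 2 highest scores and for the lowest p in each direction by exercise in the 8 libraries, by a rule written in advance; others are given by rank. CPM are counts over size factors, scaled by the mean column total. The test was edgeR 4.0.16 in R 4.3.3: quasi-likelihood with robust estimation, TMM factors, filterByExpr (minimum count 10, minimum total 15), group as the only term and Benjamini-Hochberg adjusted p under 0.05. It was fitted on the whole table. Standard errors were the fold change over the root of F. DESeq2 1.42.0 and limma 3.58.1 were alternatives. Each test was also run on simulated data in which no 2 libraries stood apart, and the outcome is not reported here. Figures were drawn with matplotlib 3.10.9.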

Additional observations from a re-analysis of the deposited data

Results flagged for a closer look

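In each group of 5, 1 library lay far from the other 4 in all 12 checks, where chance flags about 1 in 20 groups. Both libraries were used to choose the gene models, so these gaps were fixed by the choice. The share of counts taken by the 200 was 3.64% in exercised replicate 3 and 3.99% in unexercised replicate 4, and their median level was 35.4 and 41.2 CPM. In the same order, Nfu_g_1_010475 had 411 and 482 CPM, Nfu_g_1_009390 had 533 and 361 CPM, Nfu_g_1_014064 had 17.1 and 22.0 CPM, and Nfu_g_1_008278 had 35.5 and 43.4 CPM. In the groups of 4 without these 2 libraries, 0 of 12 such checks found a library apart.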

How the results depend on the processing

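Of the 200 gene models, 140 to 199 were also chosen under 8 other forms of the rule, 1 of them added after seeing the data (140 with a minimum of 20 CPM, which no more of them met) and 183 to 200 with each of the other 8 libraries left out. With all 10 libraries, 0 were called under 19 alternatives, of which DESeq2 gave no adjusted p. Where both exercised replicate 3 and unexercised replicate 4 were kept, the choice fixed a wide spread within both groups. The repeated 0 in those fits therefore says little about exercise. Of all tested gene models, 0% to 11.9% were called under the 19 alternatives, the most in limma voom with quality weights. Without exercised replicate 3, 0 of the 179 tested had a log2 fold change above 0, and without unexercised replicate 4 all 179 did. The choice fixed this, since 1 of the 2 libraries then stood in only 1 group. With 8 libraries the main count was 1. It was 0 of 124 tested with a filter of 1 CPM in 4 libraries, under which the called gene model was not tested. Under that filter 7.97% of all tested gene models were called. The count was 2 in DESeq2, against 10.3% of all tested. The count was 0 to 3 with each library left out: 0 without exercised replicate 2, 2 without exercised replicate 5 and 3 without unexercised replicate 5. Over all tested gene models the share called was 6.34%, and 2.33%, 4.58% and 3.64% in these 3 fits, with 11.7% without exercised replicate 1. The edgeR, voom, limma and DESeq2 adjusted p of Nfu_g_1_014064 ran from 0.00271 to 0.0528 over 17 settings. The median log2 ratio of exercised replicate 3 over unexercised replicate 4 was -0.0714 with TMM-scaled totals and -0.0837 with library totals. It was -0.16 for the 140 of the 200 with at least 20 CPM in both. Without the 10 most abundant gene models, the chosen ones took 4.86% of counts in exercised replicate 3 and 5.21% in unexercised replicate 4. Without the 100 most abundant they took 5.54% and 5.73%. In the other 8 libraries these shares were 0.112% to 0.152% and 0.142% to 0.203%, in the same order. The cause of these moves was not tested. The median length stayed at 2446 bases. No paired analysis was possible because replicate numbers only name the samples. Levels below 1 CPM rest on few reads.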
